A study of Mus musculus with 6 samples.

Results

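The genes that encode the glutathione and thioredoxin systems were described in the liver transcriptome of mice that lack flavin-containing monooxygenase 5 (FMO5), an enzyme that oxygenates many compounds in the liver. The members were found by symbol, and comprise the glutathione transferases of the alpha, kappa, mu, omega, pi, theta and zeta classes, the 3 microsomal glutathione transferases, the glutathione peroxidases, peroxiredoxins and glutaredoxins, the enzymes that make and recycle glutathione, the thioredoxin genes *Txn1*, *Txn2*, *Txnrd2* and *Txnip*, and the superoxide dismutases. They number 54 of the 54446 genes listed, and 3 pseudogene symbols of these families were left out. The expression of genes was measured by RNA-seq of liver from 3 WT mice, C57BL/6J, and 3 *Fmo5*-/- mice, generated on that same background. All were male, 32 weeks of age and fed standard chow, and each library is labelled as a separate liver. The labels give no batch, and a batch that followed genotype could not be told apart from it in any comparison here. The deletion is not described as limited to the liver, so an effect in hepatocytes cannot be told apart from one that begins in other cells or organs.

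Between 44886286 and 52338675 reads per library were counted on genes, which is 66.2% to 69.2% of the reads. The shares of reads left out differed by genotype without overlap. Reads at several places were 11.8% to 13.1% in WT and 10.4% to 11.5% in *Fmo5*-/- libraries. Those in more than 1 gene were 3.52% to 3.62% and 3.72% to 3.98%, and unmapped reads 9.72% to 10.1% and 9.1% to 9.2%. Reads in no gene overlapped. The target gene *Fmo5* had 39808, 37405 and 30239.7 in WT and 1071, 1102 and 1194 in *Fmo5*-/- livers, so that every library labelled *Fmo5*-/- was far under every WT library. These and the other values given for single libraries are normalised read counts, that is, counts scaled by the library's TMM (trimmed mean of M-values) size to the mean size of the libraries. The 6 hepatocyte markers, *Alb* among them, summed to 106832 to 140218 CPM in WT and 109500.4 to 136373 CPM in *Fmo5*-/- livers (CPM, counts per 1000000 of the TMM-scaled library size), and their ranges overlapped. The TMM factors were 0.9564 to 0.9747 in WT and 1.001 to 1.084 in *Fmo5*-/- libraries, so this scaling lowers *Fmo5*-/- values relative to WT values when set against library totals alone. With library totals alone, an alternative chosen after seeing the data, the median log2 fold change of all genes was 0.12 in place of 0.01, so a log2 fold change given here is lower by about that difference, 0.11, than with library totals. For members whose genotypes are apart with TMM and overlap as shares of all counts, the value with library totals is given too. All libraries come from whole liver, in which fewer cells of a type and less RNA per cell cannot be told apart.

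Glutathione is a tripeptide of glutamate, cysteine and glycine that liver makes in large amounts. Glutamate-cysteine ligase joins the first pair of amino acids and glutathione synthetase adds glycine. Transferases attach glutathione to drugs and lipid products, peroxidases use it to reduce peroxides, and glutathione reductase returns the oxidised form with electrons from NADPH. The thioredoxin system runs beside it, since thioredoxin reductase passes electrons from NADPH to thioredoxin, which renews the peroxiredoxins. Superoxide dismutases produce the hydrogen peroxide that both systems remove. Many of these genes are targets of the transcription factor NRF2, encoded by *Nfe2l2*, which binds antioxidant response elements together with small MAF proteins.

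Members spanned more than 3 orders of magnitude in their level per length, given as CPM per kb of exon (the mean ± SD of 3 libraries). The highest was *Mgst1*, which encodes a transferase of the endoplasmic reticulum and outer mitochondrial membrane, at 1783 ± 105 in WT and 1317 ± 105 in *Fmo5*-/- livers. *Gpx1*, the main cytosolic glutathione peroxidase, followed at 1070.0 ± 137 in WT livers, then *Gstm1* at 579 ± 125 and *Gsta3* at 500.3 ± 62.7. The last 2 did not differ beyond their spread on this measure. *Gstp1* came next, at 352 ± 57.9. The length used is that of all annotated exons of a gene joined, which for some members is far longer than the main transcript. It was 4344 against 1457 bases for *Gsta3*, 3970 against 641 for *Sod1* and 1473 against 1289 for *Gstm1*. The order of members by level is therefore uncertain. Among the 49 members tested, *Gsta1* had the lowest mean level over all 6 libraries, at 0.877 ± 0.425 in WT and 0.41 ± 0.0902 in *Fmo5*-/- livers. Reads that map to several places were not counted, which bears on members with close copies. Of all 75-base windows of the main transcript, 86.3% were shared with another gene for *Gsta1*, 68.2% for *Gstp2*, 57.7% for *Gstp1*, 55.3% for *Gpx4* and 46.9% for *Gsta2*, and the levels of these genes are uncertain. Reads that lie in exons of more than one gene were not counted either, and 7 of the 49 members tested (*Gss*, *Gstm5*, *Gstt3*, *Gstz1*, *Prdx2*, *Prdx5* and *Txnip*) had 11.5% to 19.4% of their exonic bases in exons of another gene.

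**Figure D1:**
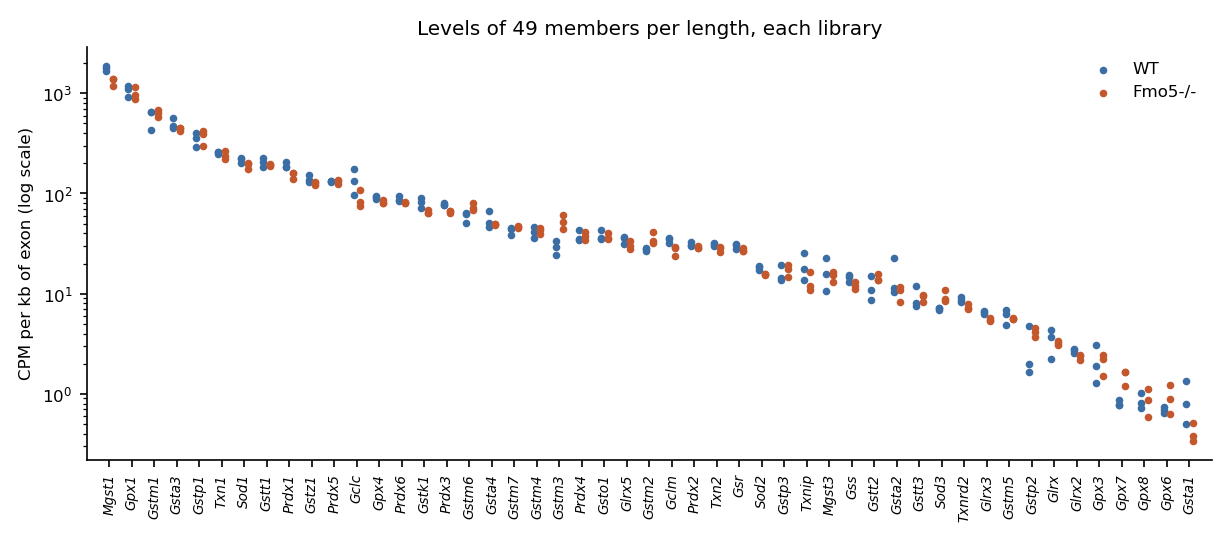
Levels of the 49 tested members, ordered by mean level. The vertical axis is CPM per kb of exon on a log scale, and each point is 1 library of WT (blue) or *Fmo5*-/- (orange) liver. *Mgst1* and *Gpx1* are at the left end and *Gsta1* is at the right end, and for most members the genotypes lie close together on this scale.

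All members together took 15871, 14362 and 14413 CPM in WT and 12722, 13278 and 13098 CPM in *Fmo5*-/- livers, so their summed level was lower in each *Fmo5*-/- liver than in every WT liver after TMM scaling. As a share of all counts the sums overlapped, at 1.38% to 1.52% in WT and 1.27% to 1.44% in *Fmo5*-/- livers. Of the members, 49 were tested and 5 had too few counts, namely *Mgst2*, *Gstt4*, *Gpx2*, *Gpx5* and *Gsto2*. *Gstm3* was the only member that passed edgeR's quasi-likelihood test with Benjamini-Hochberg adjustment at 0.05, which is 1 of 49, beside 1.37% of all 16734 genes tested. DESeq2 also called *Gstm3*, and it called 7 others, of which *Gclc*, *Gclm*, *Mgst1*, *Prdx1* and *Prdx3* were lower and *Gpx7* and *Sod3* higher in *Fmo5*-/- livers. The 5 lower calls stand beside 4.2% of all genes, and the 3 higher calls beside 4.73%. All 5 lower genes were named by the study from these same libraries, so they are not independent evidence of a direction. Apart from *Gstm3*, these 7 had edgeR adjusted p-values of 0.0677 to 0.173, and they did not pass the main test.

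The fitted level was lower in *Fmo5*-/- livers for 33 of the 49 members, and the median log2 fold change (*Fmo5*-/- over WT) was -0.10. Over all genes tested the share lower was 49.2% and the median was 0.01. Most members are abundant, and abundant genes were more often lower. Among genes with a mean of 500 or more, 64.0% had a lower fitted level, and among the 42 members at that level 30 had. With library totals alone, 24 of the 49 members had a lower fitted level, beside 31.6% of all genes, and the median of the members was 0.01, which is 0.11 under that of all genes, as it was with TMM. The genotypes were apart, with every *Fmo5*-/- library under every WT library, for 12 members, beside 13.5% of all genes, and with every *Fmo5*-/- library over every WT library for 6 members, beside 13.9%. On shares of all counts the genotypes were apart for 5 members that were lower (*Gclm*, *Glrx3*, *Mgst1*, *Prdx1* and *Prdx3*), beside 5.81% of all genes, and for the same 6 that were higher, beside 22.8%, while *Glrx2*, *Gpx4*, *Gstk1*, *Prdx6*, *Sod2*, *Txn2* and *Txnrd2* overlapped. With the limit of 500 and TMM scaling the counts of members were 12 and 5 of 42 (28.6% and 11.9%), beside 21.9% and 9.39% of all genes. DESeq2 called 5 of these 42 lower and 2 higher, beside 6.75% and 2.8%. An unadjusted edgeR p under 0.05 was found for 12 members that were lower and 5 that were higher, beside 10.2% and 11.6% of all genes.

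**Figure D2:**
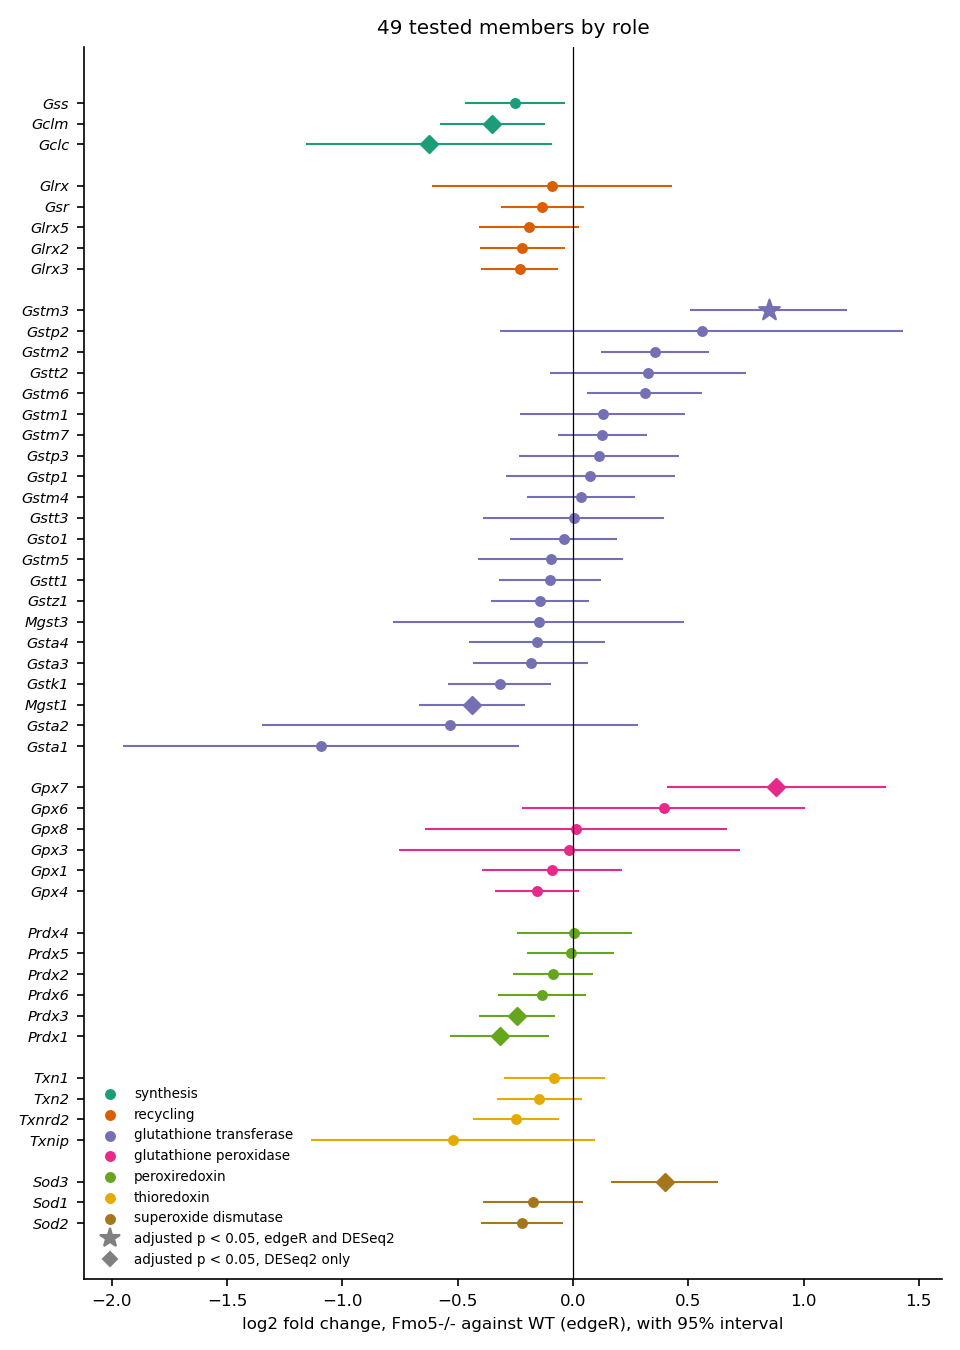
Log2 fold change of the 49 tested members, *Fmo5*-/- against WT, by edgeR, with 95% intervals and grouped by role. *Gstm3* (star) passed both tests, the 7 genes drawn as diamonds passed DESeq2 alone, and every member of the synthesis, recycling and thioredoxin groups lies on the lower side of 0 with the TMM scaling drawn (*Txn1* and *Glrx* turned with library totals alone).

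The 3 genes of glutathione synthesis were all lower in *Fmo5*-/- livers by fitted level, and their sum was 977, 671 and 797 CPM in WT and 662, 499 and 562 CPM in *Fmo5*-/- livers, with no overlap between genotypes after TMM scaling. As a share of all counts the sum was 0.0654% to 0.0935% in WT and 0.0541% to 0.0663% in *Fmo5*-/- livers, with overlap. All 3 were also lower with library totals alone. *Gclc* (chr9:77754535-77794485) encodes the catalytic subunit of glutamate-cysteine ligase, the rate-limiting enzyme. It had 32597, 17915 and 24583 in WT and 19797, 13831 and 15066 in *Fmo5*-/- livers. The range of the WT libraries was wider than the difference between the genotype means, and the highest *Fmo5*-/- library lay over the lowest WT library (log2 fold change -0.62 (SE 0.23), edgeR adjusted p = 0.173, DESeq2 adjusted p = 0.0225). Without WT replicate 1, the highest of the 6, the log2 fold change was -0.38. *Gclm* (chr3:122245557-122270732) encodes the modifier subunit, which raises the activity of the catalytic one. It had 10809, 11088 and 9863 in WT and 8725, 7308 and 8880.0 in *Fmo5*-/- livers. These genotypes did not overlap (log2 fold change -0.35 (SE 0.10), edgeR adjusted p = 0.0972, DESeq2 adjusted p = 0.0282). *Gss*, glutathione synthetase, had 4270.0, 3747 and 4452 in WT and 3798, 3219 and 3464 in *Fmo5*-/- livers. Here the WT library with the lowest value lay under the highest *Fmo5*-/- library (log2 fold change -0.25 (SE 0.10), edgeR adjusted p = 0.176, DESeq2 adjusted p = 0.141). The mean ratio of *Fmo5*-/- to WT was 0.648 for *Gclc*, 0.784 for *Gclm* and 0.841 for *Gss*.

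**Figure D3:**
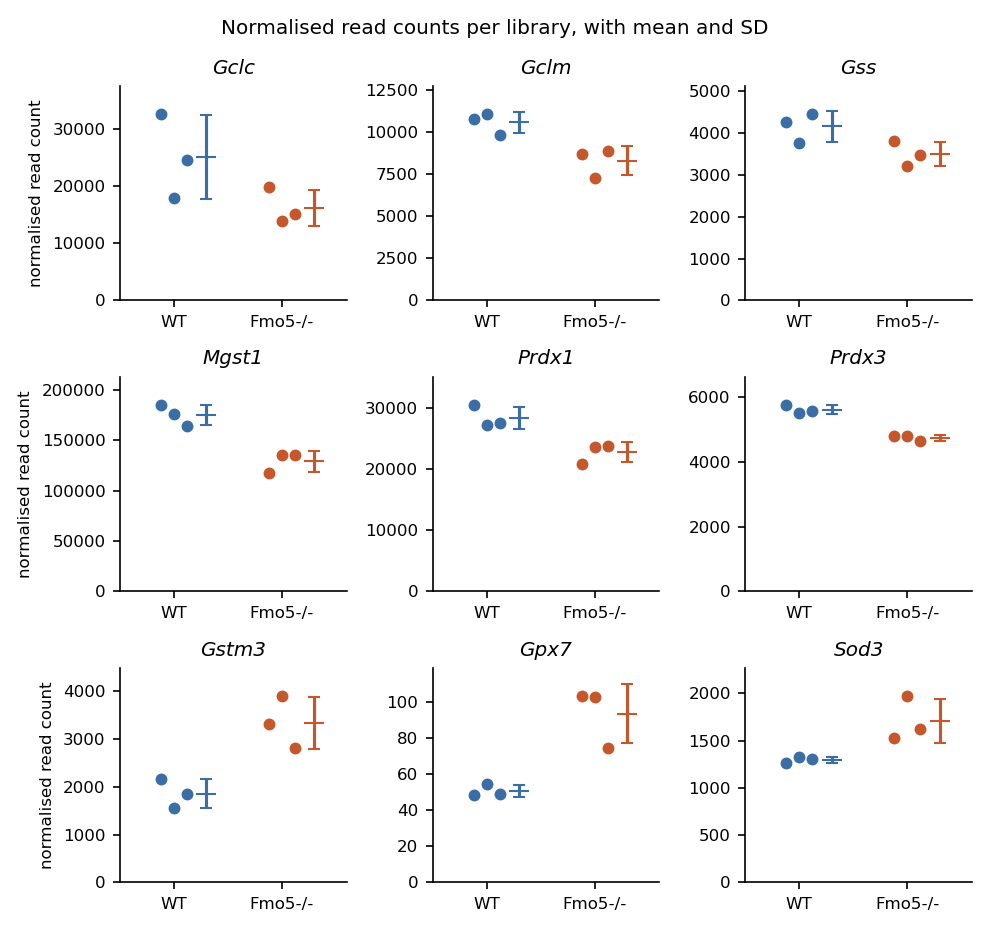
Normalised read counts of 9 members in each library, on linear axes from 0, for WT (blue) and *Fmo5*-/- (orange) livers, with the mean and SD of 3 libraries beside the points. The genotypes overlap for *Gclc* and *Gss* and are apart for the other 7, with *Gstm3*, *Gpx7* and *Sod3* higher in *Fmo5*-/- livers.

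Cysteine limits the making of glutathione. The list of 8 genes of cysteine metabolism held *Mat1a*, *Ahcy*, *Cbs*, *Cth*, *Slc7a11* and *Slc3a2*, which work in its supply, and *Cdo1* and *Csad*, which lead it away to taurine. Of the 7 tested, all had a lower fitted level with TMM and 5 with library totals alone, and 1 passed edgeR's test. That gene was *Csad*, cysteine sulfinic acid decarboxylase, which does not supply cysteine. It had 30425, 21298 and 31643 in WT and 17673, 13683 and 15632 in *Fmo5*-/- livers, and the genotypes were apart (log2 fold change -0.83 (SE 0.16), edgeR adjusted p = 0.0494, DESeq2 adjusted p = 2.18e-05). *Cth*, which releases cysteine from cystathionine, was at 21604 ± 2393 in WT and 18161 ± 685 in *Fmo5*-/- livers (SD, n = 3 each), with an edgeR adjusted p of 0.195. *Slc7a11*, the cystine carrier, was too low to be tested. Of 16 tested genes of glutathione breakdown and transport, 0 passed the test of edgeR or of DESeq2, and 2 had an unadjusted edgeR p under 0.05.

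The transferases, the role group with the most tested genes, showed the widest range of log2 fold changes. It ran from -1.09 for *Gsta1*, which had few counts, to 0.85 for *Gstm3*. Of 22 tested, 11 had a lower and 11 a higher fitted level, and the median log2 fold change was -0.02. The 7 mu class genes lie side by side in 149 kb of chromosome 3, and 6 of them had a higher fitted level (7 with library totals alone). WT replicate 2 was the lowest library for each of the 7, and without it *Gstm1* and *Gstm4* turned to a lower fitted level. Among the other 15 transferases 10 had a lower fitted level (8 with library totals alone). *Gstm3* (chr3:107963696-107969283) had 2161, 1552 and 1851 in WT and 3314, 3899 and 2804 in *Fmo5*-/- livers. Every *Fmo5*-/- library was over every WT library, and the mean ratio was 1.8 (log2 fold change 0.85 (SE 0.15), edgeR adjusted p = 0.043, DESeq2 adjusted p = 1.71e-05). The edgeR call was lost without WT replicate 2 (adjusted p = 0.0771), WT replicate 3 (0.0803), *Fmo5*-/- replicate 1 (0.13) or *Fmo5*-/- replicate 2 (0.089), while the log2 fold change stayed between 0.72 and 0.98. Of the windows of *Gstm3*, 21.6% were shared with other genes, *Gm8834*, *Gstm2-ps1* and *Gstm1* among them.

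In the order of the chromosome, the log2 fold changes of the mu class were -0.10 (SE 0.14) for *Gstm5*, 0.13 (SE 0.08) for *Gstm7*, 0.31 (SE 0.11) for *Gstm6*, 0.85 (SE 0.15) for *Gstm3*, 0.36 (SE 0.10) for *Gstm2*, 0.13 (SE 0.16) for *Gstm1* and 0.03 (SE 0.10) for *Gstm4*. The difference was largest at *Gstm3* and smaller on both sides of it. *Gstm2* had 2366, 2174 and 2296 in WT and 2768, 3367 and 2614 in *Fmo5*-/- livers, and the genotypes were apart (edgeR adjusted p = 0.0985, DESeq2 adjusted p = 0.0601). *Gstm6* had 6226, 4924 and 6067 in WT and 6625, 7747 and 6995 in *Fmo5*-/- livers, also apart (edgeR adjusted p = 0.148). *Gstm1*, the most abundant of the class, had 46588, 31222 and 47091 in WT and 48893, 41522 and 46095 in *Fmo5*-/- livers. Its genotypes overlapped, with WT replicate 2 under the other 5 libraries, and its 95% interval of -0.23 to 0.49 allows a difference in either direction. Without WT replicate 2 the log2 fold change was -0.040 for *Gstm1*, -0.052 for *Gstm4*, -0.22 for *Gstm5* and 0.059 for *Gstm7*. It was 0.21 for *Gstm6*, 0.74 for *Gstm3* and 0.32 for *Gstm2*. The sign of *Gstm5* turned without WT replicate 3, and that of *Gstm4* also without *Fmo5*-/- replicate 2.

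**Figure D4:**
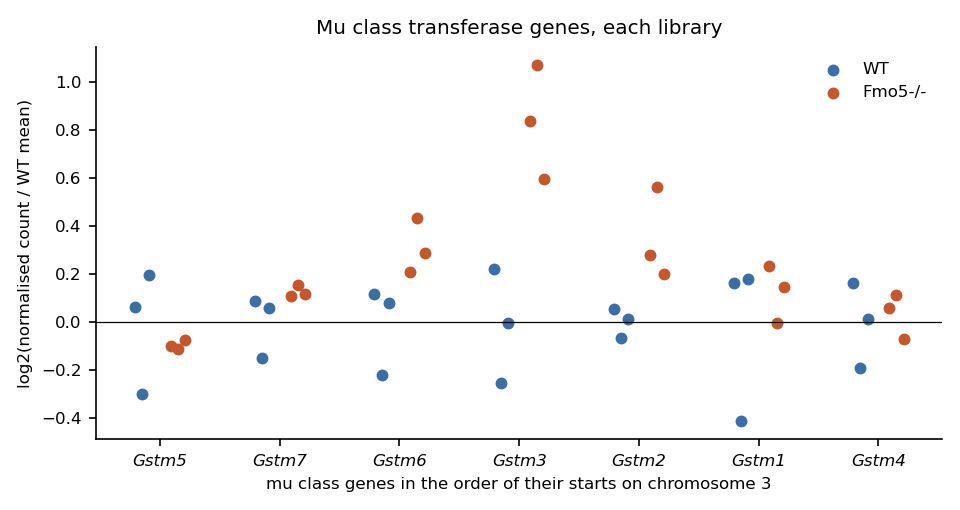
The 7 mu class transferase genes in the order of their starts on chromosome 3. The vertical axis is the log2 ratio of the normalised count to the mean of the WT libraries, and each point is 1 library of WT (blue) or *Fmo5*-/- (orange) liver. The *Fmo5*-/- libraries lie over the WT libraries for *Gstm7*, *Gstm6*, *Gstm3* and *Gstm2*, with the widest gap at *Gstm3*.

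*Fmo5* is on the same chromosome, 10.3 Mb from *Gstm3*. Within 20 Mb of *Fmo5*, 18 of 427 tested genes, *Fmo5* left out and *Gstm3* counted among the 18, passed edgeR's test (4.22%), beside 210 of 16306 elsewhere (1.29%). On chromosome 3 beyond 20 Mb the count was 21 of 438 (4.79%). Of the 35 other tested genes within 1 Mb of the mu class, 0 passed edgeR's test, and 10 had an unadjusted edgeR p under 0.05 (28.6%, beside 21.8% of all genes). DESeq2's test was passed by 4, all higher in *Fmo5*-/- livers (11.4%, beside 4.73% of all genes). These 2 shares have unlike bases, since *Kcna3* and *Gm12498* among the 35 had no DESeq2 adjusted p and the 4.73% is of genes that had one. Nothing particular to these few neighbours is read from the counts. The deletion and any flanking alleles carried with it cannot be told apart in these mice. *Gclm* and *Txnip* are also on chromosome 3, 24.6 and 1.08 Mb from *Fmo5*.

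Among the other transferases, *Mgst1* (chr6:138140316-138156755) had 185090.2, 175644 and 164579 in WT and 117435, 135088 and 135477 in *Fmo5*-/- livers. The genotypes were apart, the mean ratio was 0.739, and in absolute counts this was the largest difference of any member (log2 fold change -0.44 (SE 0.10), edgeR adjusted p = 0.0677, DESeq2 adjusted p = 0.00102). *Gstk1*, the mitochondrial and peroxisomal kappa class enzyme, had 6494, 5883 and 5126 in WT and 4591, 4888 and 4573 in *Fmo5*-/- livers. The genotypes were again apart with TMM (log2 fold change -0.32 (SE 0.10), edgeR adjusted p = 0.114, DESeq2 adjusted p = 0.0519), and overlapped with library totals (log2 fold change -0.21). *Gsta3*, the most abundant alpha class gene, had 121134, 96142 and 100852 in WT and 96545, 94529 and 88973 in *Fmo5*-/- livers, and the genotypes overlapped (95% interval of the log2 fold change -0.43 to 0.07). All 4 alpha class genes had a lower fitted level, 0 passed the test of edgeR or of DESeq2, and 1 (*Gsta1*) had an unadjusted edgeR p under 0.05. For each of the 4, WT replicate 1 stood over the other 5 libraries, for *Gsta2* with 1315 against 474 to 674. The log2 fold change of *Gsta2* was -0.53, and -0.08 without that library. For *Gsta3* it was -0.18, and -0.072 without that library. Without single libraries *Gsta1*, at -1.09 in the main fit, reached -0.65, and *Gsta4* ran from -0.26 to 0.029. All 3 pi class genes had a higher fitted level, from 0.07 for *Gstp1* to 0.56 for *Gstp2*, with overlap in each and adjusted p-values of 0.435 to 0.834 by edgeR. The value of *Gstp2* was 0.30 without WT replicate 1, 0.37 without WT replicate 2 and 1.18 without WT replicate 3, and in the last of these it passed edgeR's test (adjusted p = 0.0376). The remaining tested genes, *Gstt1*, *Gstt2*, *Gstt3*, *Gsto1*, *Gstz1*, *Gsta4* and *Mgst3*, lay between -0.16 and 0.33, and their genotypes overlapped. The highest of these was *Gstt2*, which ran from 0.16 to 0.56 without single libraries.

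Among 10 other enzymes that use glutathione, *Ptges*, prostaglandin E synthase, passed edgeR's test, at 57.3 ± 11.5 in WT and 18.2 ± 6.23 in *Fmo5*-/- livers (SD, n = 3 each) (log2 fold change -1.65 (SE 0.31), edgeR adjusted p = 0.0468, DESeq2 adjusted p = 0.000805). DESeq2 alone called *Glo1*, glyoxalase 1 (log2 fold change -0.34 (SE 0.10), DESeq2 adjusted p = 0.0254), and *Esd*, which hydrolyses S-formylglutathione (-0.30 (SE 0.08), 0.0134), both lower. It also called *Hpgds*, the glutathione-dependent prostaglandin D synthase, which was higher at 69.6 ± 23.4 in WT and 142 ± 35.2 in *Fmo5*-/- livers (SD, n = 3 each) (DESeq2 adjusted p = 0.0103). Markers of Kupffer cells and macrophages moved in the same direction, as given with the cell type markers.

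Of 6 glutathione peroxidases tested, 3 had a lower and 3 a higher fitted level, and with library totals alone 1 was lower. *Gpx1*, which held most of the counts of the family, had 77162, 83769 and 64783 in WT and 62371, 81884 and 67792 in *Fmo5*-/- livers. The genotypes overlapped (95% interval of the log2 fold change -0.39 to 0.21). *Gpx4*, which reduces peroxides of membrane lipids, had 7973, 7754 and 7359.5 in WT and 6691, 7260.4 and 6766 in *Fmo5*-/- livers. Its genotypes were apart by a small margin with TMM (log2 fold change -0.16 (SE 0.08), edgeR adjusted p = 0.302, DESeq2 adjusted p = 0.282), and overlapped with library totals (log2 fold change -0.045). *Gpx3*, the secreted plasma form, had 113, 166 and 273 in WT and 134, 214 and 199 in *Fmo5*-/- livers. Its libraries spread widely within each genotype, and the interval was -0.75 to 0.72. *Gpx7*, a peroxidase of the endoplasmic reticulum, had 48.7, 54.7 and 49.1 in WT and 103, 103 and 74.6 in *Fmo5*-/- livers. Each *Fmo5*-/- library was over each WT library at this low level, with a mean ratio of 1.84 (log2 fold change 0.88 (SE 0.21), edgeR adjusted p = 0.0709, DESeq2 adjusted p = 0.0202), and without *Fmo5*-/- replicate 3 it passed edgeR's test (adjusted p = 0.0358). *Gpx8*, its relative in the same compartment, had a log2 fold change of 0.01 (SE 0.29), and *Gpx6* had 0.39 (SE 0.27), both with overlap. Without *Fmo5*-/- replicate 3 the value of *Gpx6* was 0.12, and without *Fmo5*-/- replicate 1 it was 0.60.

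Of the 6 peroxiredoxins 5 had a lower fitted level, and the family summed to 1600.3, 1575 and 1565 CPM in WT and 1344, 1426 and 1436 CPM in *Fmo5*-/- livers, with no overlap after TMM scaling. As a share of all counts the family took 0.15% to 0.153% in WT and 0.134% to 0.154% in *Fmo5*-/- livers, with overlap, and with library totals alone 3 of 6 had a lower fitted level. *Prdx1*, the abundant cytosolic enzyme, had 30514, 27185 and 27615 in WT and 20890.2, 23672 and 23858 in *Fmo5*-/- livers. Every *Fmo5*-/- library was under every WT library (log2 fold change -0.32 (SE 0.10), edgeR adjusted p = 0.107, DESeq2 adjusted p = 0.0244). *Prdx3*, the mitochondrial enzyme, had 5755, 5517 and 5571 in WT and 4803, 4793 and 4636 in *Fmo5*-/- livers. Again every *Fmo5*-/- library was under every WT library (log2 fold change -0.24 (SE 0.07), edgeR adjusted p = 0.107, DESeq2 adjusted p = 0.0392). *Prdx6*, which takes its electrons from glutathione, had 20389, 22102 and 19838 in WT and 18858, 18764 and 19166 in *Fmo5*-/- livers, apart with TMM at an edgeR adjusted p of 0.395. With library totals *Prdx6* overlapped, and its log2 fold change was -0.025 in place of -0.13. Without WT replicate 2 the value of *Prdx6* was -0.086. *Prdx5* had 13449.6, 13952 and 14052 in WT and 12897, 14357 and 13902 in *Fmo5*-/- livers, and the genotypes overlapped, with an interval of -0.20 to 0.18. *Prdx2* and *Prdx4*, of the cytosol and the endoplasmic reticulum, had log2 fold changes of -0.09 (SE 0.08) and 0.01 (SE 0.11) with overlap. The value of *Prdx2* ran from -0.11 to -0.041 without single libraries.

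All 4 thioredoxin genes and all 5 genes of recycling had a lower fitted level with TMM, and with library totals alone *Txn1* and *Glrx* turned to the other side of 0. Of these 9, 0 passed the test of edgeR or of DESeq2, and 1 (*Txnrd2*) and 2 (*Glrx2* and *Glrx3*) had an unadjusted edgeR p under 0.05. *Txn1*, cytosolic thioredoxin, had 13423, 12614 and 13361 in WT and 11222, 13774 and 12256 in *Fmo5*-/- livers, and its genotypes overlapped, with an interval of -0.30 to 0.14. *Txn2*, mitochondrial thioredoxin, had 6149.8, 6387 and 6556 in WT and 5362, 6047 and 5844 in *Fmo5*-/- livers. *Txnrd2*, which reduces it, was at 1879.9 ± 113 in WT and 1584 ± 100.1 in *Fmo5*-/- livers (SD, n = 3 each), and the genotypes of both genes were apart with TMM (edgeR adjusted p = 0.339 and 0.135). With library totals both overlapped, and the log2 fold change was -0.034 in place of -0.15 for *Txn2* and -0.14 in place of -0.25 for *Txnrd2*. *Txnip*, which binds thioredoxin and blocks it, had 2660.3, 3841 and 2079.6 in WT and 1824, 1656 and 2497 in *Fmo5*-/- livers. It overlapped, and WT replicate 2 stood highest (log2 fold change -0.52 (SE 0.26), edgeR adjusted p = 0.302, DESeq2 adjusted p = 0.103). Without that library the log2 fold change was -0.25. Of its exonic bases, 19.4% lie in exons of *Gm15441*, and reads there were left out of the counts of both genes. *Gsr*, glutathione reductase, had 4083, 4218 and 3743 in WT and 3810.1, 3616 and 3551 in *Fmo5*-/- livers. The *Fmo5*-/- library with the highest value lay just over the lowest WT library (log2 fold change -0.13 (SE 0.08), edgeR adjusted p = 0.371, DESeq2 adjusted p = 0.422). Among glutaredoxins, *Glrx5*, which works in iron-sulfur cluster assembly, had 6556, 6507 and 5678 in WT and 5973, 5074 and 5382 in *Fmo5*-/- livers, with overlap. *Glrx3* had 1643, 1589 and 1521 in WT and 1349.8, 1313 and 1385 in *Fmo5*-/- livers, with no overlap (log2 fold change -0.23 (SE 0.07), edgeR adjusted p = 0.119, DESeq2 adjusted p = 0.12), and *Glrx2*, a mitochondrial form, was apart with TMM (log2 fold change -0.22, edgeR adjusted p = 0.167). With library totals *Glrx2* overlapped (log2 fold change -0.11). *Glrx* itself overlapped, with WT values from 596 to 1158.

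Of 15 partners of thioredoxin and peroxiredoxin, 12 had a lower fitted level (5 with library totals alone), 0 passed edgeR's test, 1 passed DESeq2's, and 3 had an unadjusted edgeR p under 0.05. The gene DESeq2 called was *Txnl1*, a thioredoxin-like protein of the proteasome, at 5554 ± 142 in WT and 4296 ± 207 in *Fmo5*-/- livers (SD, n = 3 each) (log2 fold change -0.37 (SE 0.08), edgeR adjusted p = 0.0552, DESeq2 adjusted p = 0.0018). *Txnrd1*, cytosolic thioredoxin reductase and an NRF2 target, was at 7329 ± 786 in WT and 6167 ± 846 in *Fmo5*-/- livers (SD, n = 3 each), with overlap (edgeR adjusted p = 0.271). *Srxn1*, sulfiredoxin, which repairs overoxidised peroxiredoxin, was at 1957 ± 102 in WT and 2015 ± 274 in *Fmo5*-/- livers (SD, n = 3 each), with an interval of -0.20 to 0.28. Of 10 genes of NADPH supply tested, 0 passed edgeR's test, and 4 had an unadjusted edgeR p under 0.05, beside 21.8% of all genes. DESeq2 called 3, all lower, beside 4.2% of all genes. The study named these 3 from the same libraries, so they are not independent evidence. *Me1*, malic enzyme, had 12408, 8338 and 11622 in WT and 5856, 2580.1 and 4699 in *Fmo5*-/- livers. *Idh1*, cytosolic isocitrate dehydrogenase, had 34952, 32615 and 31666 in WT and 25721, 21122 and 24687 in *Fmo5*-/- livers. *Nadk2*, the mitochondrial NAD kinase, had 10753, 10249 and 8348 in WT and 8149, 6253 and 7072 in *Fmo5*-/- livers. In each of the 3 the genotypes were apart (*Nadk2* overlapped on shares of all counts), with edgeR adjusted p-values of 0.0961, 0.0564 and 0.0938. *G6pdx*, the first enzyme of the pentose phosphate route, had a log2 fold change of 0.41 (SE 0.19) with overlap. *Nnt*, the mitochondrial transhydrogenase, was counted at 32.9 ± 11 in WT and 42.5 ± 11.4 in *Fmo5*-/- livers (SD, n = 3 each). Of its exonic bases 47.4% also lie in another gene model of the same symbol, which had 0 counts. Reads that lie in both models were not counted, so the full level of *Nnt* cannot be told from these counts.

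The superoxide dismutases differed from each other in direction. *Sod1*, of the cytosol, had 42693, 38896 and 43604 in WT and 33859, 38922 and 38238 in *Fmo5*-/- livers. The lowest WT library lay just under the highest *Fmo5*-/- library (log2 fold change -0.17 (SE 0.10), edgeR adjusted p = 0.338, DESeq2 adjusted p = 0.282). The log2 fold change of *Sod1* was -0.060 with library totals, and ran from -0.22 to -0.11 without single libraries. *Sod2*, of mitochondria, had 9075, 9135 and 8362 in WT and 7558, 7608 and 7620.4 in *Fmo5*-/- livers. The genotypes were apart with TMM and the *Fmo5*-/- libraries lay close together (log2 fold change -0.22 (SE 0.08), edgeR adjusted p = 0.151, DESeq2 adjusted p = 0.0885). With library totals the genotypes overlapped (log2 fold change -0.11). *Sod3*, the secreted form that binds the cell surface and matrix, had 1262, 1323 and 1306 in WT and 1527, 1973 and 1625 in *Fmo5*-/- livers. Every *Fmo5*-/- library was over every WT library (log2 fold change 0.40 (SE 0.10), edgeR adjusted p = 0.0783, DESeq2 adjusted p = 0.0337). *Cat*, catalase, was at 146031 ± 2181 in WT and 127610.0 ± 12946 in *Fmo5*-/- livers (SD, n = 3 each), with no overlap after TMM scaling, overlap on shares of all counts and an edgeR adjusted p of 0.311, and *Ccs*, the copper chaperone of *Sod1*, had an interval of -0.21 to 0.17. Selenocysteine is the residue at the active site of *Gpx1*, *Gpx4* and the thioredoxin reductases. Of 7 genes for its insertion, 0 passed the test of edgeR or of DESeq2, and 1 had an unadjusted edgeR p under 0.05.

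Of 12 regulators listed, 9 had a lower fitted level, and 5 with library totals alone. *Maf*, a large MAF factor, rose in *Fmo5*-/- livers, with 1679, 1843 and 1542 in WT and 2553, 2524 and 2217 in *Fmo5*-/- livers (log2 fold change 0.53 (SE 0.09), edgeR adjusted p = 0.043, DESeq2 adjusted p = 0.000805). DESeq2 alone also called *Mafk*, a small MAF partner of NRF2, higher (0.42 (SE 0.12), DESeq2 adjusted p = 0.0495), and both *Nfe2l2* (-0.29 (SE 0.08), 0.0331) and *Bach1*, which competes with NRF2 for its sites (-0.40 (SE 0.11), 0.0285), lower. *Keap1*, which holds NRF2 back, had an interval of -0.17 to 0.17. The study named *Maf* as higher and *Nfe2l2* as lower from these same libraries, so neither is independent evidence.

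To show where an antioxidant response element could lie, promoters were searched for its core, TGACNNNGC, on both strands, in windows of 250 bases before to 50 bases after each start in RefSeq on GRCm38.p6. Windows were found for 48 of 54 members, and 7 of the 48 genes held a match, 14.6%, beside 14.0% of all 27025 genes with a window. Nothing is read from shares this close. Of the members called by either test, *Gclm*, *Mgst1* and *Prdx1* held a match, and *Gstm3*, *Gpx7* and *Prdx3* held none. *Gclc* and *Sod3*, also called, were not searched, since they are among the 6 members with no window, the others being *Gsr*, *Gsta4*, *Gstt2* and *Prdx6*. In the mu class *Gstm5* and *Gstm7* held one, and *Gsta3* and *Sod1* were the other members with a match. The 3 stretches of called members and those of the mu class are printed in the direction of the gene, with the match in capitals. They lie at chr3:122245413-122245441 (plus strand), chr6:138140461-138140489 (plus strand), chr4:116685456-116685484 (plus strand), chr3:107895802-107895830 (plus strand) and chr3:107931725-107931753 (minus strand).
Gclm: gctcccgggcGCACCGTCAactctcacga
Mgst1: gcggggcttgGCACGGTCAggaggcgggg
Prdx1: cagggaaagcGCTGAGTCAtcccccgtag
Gstm5: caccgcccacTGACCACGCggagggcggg
Gstm7: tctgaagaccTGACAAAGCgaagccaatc
In *Gclm*, *Mgst1* and *Prdx1* the core reads on the strand opposite to the gene, as TGACGGTGC, TGACCGTGC and TGACTCAGC. In *Gstm5* and *Gstm7* it reads along the gene, as TGACCACGC and TGACAAAGC. A match to these letters is a description of the sequence and not a bound site.

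Markers of some other cells differed between genotypes. Kupffer cell and macrophage markers summed to 207 to 244 CPM in WT and 328 to 601 CPM in *Fmo5*-/- livers. Of these markers 8 of 8 had a higher fitted level, and the genotypes were apart for 7, beside 13.9% of all genes. *Clec4f* passed edgeR's test, and DESeq2 called 7 of the 8 higher, beside 4.73% of all genes. T, NK and B cell markers summed to 3.75 to 6.68 CPM in WT and 6.88 to 16.6 CPM in *Fmo5*-/- livers. Here 7 of 7 were higher, 5 were apart and DESeq2 called 3. Neutrophil markers summed to 0.859 to 2.39 CPM in WT and 2.49 to 5.4 CPM in *Fmo5*-/- livers. Of these 6, 4 were too low to be tested, and DESeq2 called 1 of the 2 tested, higher. Endothelial markers summed to 186 to 215 CPM in WT and 191 to 196 CPM in *Fmo5*-/- livers, stellate cell and fibroblast markers to 251 to 300.2 CPM in WT and 251 to 368 CPM in *Fmo5*-/- livers, cholangiocyte markers to 36.6 to 68.2 CPM in WT and 45.1 to 54.2 CPM in *Fmo5*-/- livers and erythroid markers to 203 to 303 CPM in WT and 204 to 434 CPM in *Fmo5*-/- livers, and each of these sums overlapped. Single endothelial markers went both ways, with *Fcgr2b* (called by DESeq2) and *Oit3* apart and lower, *Stab2* apart and higher, 3 of 7 at an unadjusted edgeR p under 0.05 and 0 called by edgeR. Adipocyte markers summed to 9.28 to 21.5 CPM in WT and 0.865 to 2.84 CPM in *Fmo5*-/- livers, where *Cfd* alone was high enough to be tested and *Adipoq*, *Lep* and *Plin1* were not. *Cfd* was apart, lower and called by DESeq2 (log2 fold change -3.21, edgeR adjusted p = 0.0633). Markers of pancreas and gut summed to under 1 CPM in each library, with *Cela3b* and *Cpa1* at 0. Perivenous hepatocyte markers had a higher fitted level in 9 of 10 (10 with library totals alone), with sums of 7556 to 10593 CPM in WT and 8929 to 10927 CPM in *Fmo5*-/- livers, and periportal markers a lower one in 5 of 8 (4 with library totals alone), with sums of 3819 to 4070.2 CPM in WT and 3366 to 4526 CPM in *Fmo5*-/- livers. Among the perivenous markers *Cyp1a2* passed both tests, higher in *Fmo5*-/- livers (log2 fold change 0.65 (SE 0.10), edgeR adjusted p = 0.0208), and 2 were apart. Of the periportal markers 0 passed edgeR's test, 3 had an unadjusted edgeR p under 0.05, 3 were apart, and DESeq2 called *Cyp2f2* and *Hsd17b13*, both lower. Male-biased hepatocyte genes were lower by fitted level in 8 of 8 (6 with library totals alone), with sums of 3847 to 6741 CPM in WT and 3222 to 3892 CPM in *Fmo5*-/- livers. Of these 8, 0 passed edgeR's test, 2 had an unadjusted edgeR p under 0.05, and 2 (*Selenbp2* and *Mup20*) were apart and called by DESeq2. *Selenbp2* had the widest difference, with 3818, 26125 and 23009 in WT and 177, 202 and 453 in *Fmo5*-/- livers, and it lies 2.94 Mb from *Fmo5*, and *Hsd3b5* and *Cyp7b1* are also on chromosome 3. Of the female-biased genes, 3 of 8 were high enough to be tested, at sums of 1.07 to 3.56 CPM in WT and 2.37 to 4.05 CPM in *Fmo5*-/- livers. The part of these differences in the results for *Gstm3*, *Gpx7*, *Sod3*, *Hpgds*, *Maf* and the lower members was not tested.

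The 5 members that were not tested had 2 to 46 counts over all 6 libraries. *Gpx5* had the most over all libraries, with 17 counts in *Fmo5*-/- replicate 2. *Mgst2*, a microsomal transferase on chromosome 3, had 18, 8 and 6 counts in WT and 0, 5 and 2 counts in *Fmo5*-/- livers. By counting error alone, a count of 0 has an upper 95% bound of about 3 on the expected count. *Gstt4* had 2 counts in all. *Gpx2*, the gastrointestinal peroxidase, had 22 counts, and *Gsto2* had 44.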

How the data were processed

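Liver RNA was sequenced as single reads of 75 bases, which the authors aligned to mm10 (STAR 2.6.0c), and the deposited files hold raw counts per gene, for both strands together and each alone. The authors' DESeq2 table, also deposited, holds signal values (counts divided by a size factor per library), log2 fold changes with errors, a score (the Wald statistic) and p-values. Its symbols defined the members, and its comparison columns were not used. Counts of both strands were analysed.

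Genes were filtered with filterByExpr (minimum count 10), scaled by TMM and tested with the robust quasi-likelihood test of edgeR 4.0.16 in R 4.3.3, with Benjamini-Hochberg adjustment over 16734 genes. DESeq2 1.42.0 was the alternative tool. SE is the log2 fold change over the square root of F. An exact test of 3 against 3 libraries cannot go below p = 0.1. P-values cover the spread between these livers. Positions and exon lengths came from GENCODE vM21, on the build of mm10. The authors' annotation release is not given in the sources used here. Steps were tested on simulated data, where recovery of known changes was required only of genes with more counts. That limit was set after DESeq2 fell short on genes with few counts.

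Values per library were given for members called by edgeR or DESeq2, the synthesis genes and *Gsr*, the 3 most abundant members of each role, and members with a mean of 500 or more, genotypes apart and a log2 fold change beyond 0.3. Members and lists were chosen with earlier results of these data known. Alternatives were DESeq2, RLE scaling, scaling without the 20 most abundant genes, no filter, a mean of 500 or more before the fit, 1 strand, each library left out and, added after seeing the data, library totals without TMM factors.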

Additional observations from a re-analysis of the deposited data

How the results depend on the processing

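With 3 livers a genotype, the count of calls depended on the fit. Genes called over all genes tested were 1396 with DESeq2, 1989 without the filter, 53 with a mean of 500 or more before the fit, 446 with library totals alone, and 31 to 763 without single libraries, against 229. Members called were 8 with DESeq2, 11 without the filter, 0 with the limit of 500, 2 with library totals alone (*Gstm3* and *Gpx7*) and 0 to 2 without single libraries (*Gstm3* alone, *Gstp2* alone, *Gstm3* with *Gpx7*, or none), against 1. The cause was not tested. The median of the members was -0.15 to -0.070 without single libraries, was -0.15 without *Fmo5*-/- replicate 2 and was 0.010 with library totals alone, against -0.10. The number with a lower fitted level was 24 with library totals alone and 31 to 38 in the other settings that tested all 49 members, and 28 of 42 with the limit of 500. The call of *Gstm3* was also lost with the limit of 500 (adjusted p = 0.0615). Of the 49 members, 32 kept their direction in every setting run and 17 turned in at least 1, all of them with an edgeR adjusted p of 0.536 or more in the fit reported: *Glrx* (0.019 with library totals, -0.32 to 0.12 without single libraries), *Gpx1* (0.024 with library totals), *Gpx3* (0.099 on 1 strand, 0.10 with library totals, -0.26 to 0.39 without single libraries), *Gpx8* (-0.0023 with DESeq2, -0.24 to 0.23 without single libraries), *Gsta4* (-0.26 to 0.029 without single libraries), *Gstm1* (-0.040 to 0.23 without single libraries), *Gstm4* (-0.052 to 0.13 without single libraries), *Gstm5* (0.015 with library totals, -0.22 to 0.015 without single libraries), *Gsto1* (0.024 with the limit of 500, 0.068 with library totals, -0.11 to 0.064 without single libraries), *Gstp1* (-0.040 to 0.21 without single libraries), *Gstt1* (0.010 with library totals), *Gstt3* (-0.015 with DESeq2, -0.0052 with RLE scaling, -0.013 without the filter, -0.12 to 0.24 without single libraries), *Mgst3* (-0.38 to 0.17 without single libraries), *Prdx2* (0.025 with library totals), *Prdx4* (-0.0091 with DESeq2, -0.0057 without the filter, -0.018 on 1 strand, -0.066 to 0.12 without single libraries), *Prdx5* (0.055 with the limit of 500, 0.10 with library totals, -0.044 to 0.031 without single libraries) and *Txn1* (0.034 with library totals). No paired analysis was possible because the labels give no number that ties a WT liver to a *Fmo5*-/- liver. The median of all genes moved by 0.11 with library totals alone and by less than 0.1 under the other scalings. Library totals alone were chosen after seeing the data. Some genes, such as *Gpx7*, *Gsta1* and *Gpx8*, had few counts, and how far depth limits their results was not tested.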

Other observations

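Copies of member genes were counted under their own names. The pseudogenes *Gpx4-ps2* and *Gstm2-ps1* had means of 529 and 574 normalised counts in WT livers and 499 and 561 in *Fmo5*-/- livers, and *Gstp-ps* had 1115 and 1213. *Gm8834*, which shares sequence with *Gstm3*, had 134 and 154. By edgeR and by DESeq2, 0 of these 4 passed the test, and 0 had an unadjusted edgeR p under 0.05.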
